A study of Mus musculus with 51 samples.

Results

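The genes described here are the 6 subunits of the replicative DNA helicase, Mcm2, Mcm3, Mcm4, Mcm5, Mcm6 and Mcm7, and 4 genes of mitosis, Cdk1, Birc5, Cdc20 and Mki67. They were matched by symbol, and all 10 are among the 33773 gene rows of the deposited expression matrix. The study asked what mouse hepatocytes express once the FoxA transcription factors are lost. RNA was sequenced from hepatocytes in 4 groups. The 4 triple null libraries come from FoxA1 L/L, FoxA2 L/L, FoxA3-/- mice that received, at 8 weeks of age, an adeno-associated virus (AAV8) with Cre recombinase driven by the hepatocyte-specific Tbg promoter. The 4 FoxA3 null libraries come from mice with the same alleles that received AAV with GFP, so these controls lack FoxA3 too. The 3 libraries of FoxA1/A2 lox mice are undeleted, and the 4 FoxA1/A2 Cre alfp libraries carry the FoxA1/A2 deletion with FoxA3 present; the labels give no age for either. A separate set from whole liver holds 2 HNF4a control libraries and 4 libraries labelled HNF4a null, depleted in the adult, also with no age given. The time between virus and harvest is not given, and the labels do not say whether the libraries of a group come from separate animals, so p-values measure only the spread between libraries.

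Values are the authors' RPKM, read counts scaled to gene length and library size. Absolute depth is unknown, and depth relative to the shallowest library, from the spacing of low values, ran from 1 to 4.09, with the liver libraries lowest (1 to 1.1). Foxa3 was at most 0.0114 RPKM in the triple null and FoxA3 null libraries and at least 19 RPKM in all other groups. Foxa2 was 0.243 to 0.47 RPKM in the triple null, against 11.1 to 20.6 RPKM in FoxA3 null. Foxa1 was 3.04 to 3.63 against 6.14 to 10.1 RPKM. Hnf4a went against its label, at 487 to 545 RPKM where the label is HNF4a null and 118 to 126 RPKM in HNF4a control, so directions in the liver set rest on labels that this gene does not bear out. Whether the labels are exchanged or reads outside the deleted part of Hnf4a were counted was not tested. All 10 hepatocyte markers examined reached 1 RPKM in every group. Markers of some other liver cells were higher in the liver libraries: 11 Kupffer cell and macrophage markers summed to 173 to 266 RPKM there and to 9.54 to 93.1 RPKM in the hepatocyte libraries. Neutrophil and monocyte markers summed to 1.96 to 2.58 RPKM in HNF4a control and 5.32 to 18.2 RPKM under the HNF4a null label. In lox, FoxA3 null and Cre alfp they summed to 0.852 to 4.06 RPKM. They reached 9.71 to 112 RPKM in the triple null. Cholangiocyte markers summed to 17.9 to 18.8 RPKM in HNF4a control and 8.89 to 20.9 RPKM in lox.

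Most hepatocytes of an adult liver do not divide, but they can re-enter the cell cycle after loss of tissue. The Mcm proteins form a ring that is loaded onto replication origins before S phase by the origin recognition complex with Cdc6 and Cdt1, and that becomes the active helicase when Cdc45 and the GINS complex join it. Their genes are classical targets of E2F factors, which pocket proteins such as Rb1 restrain in resting cells. The mitosis genes act later and are classically induced in G2 through a promoter element called CHR (cell cycle genes homology region). Cdk1 is the kinase that drives entry into mitosis, Birc5 (survivin) is a subunit of the chromosome passenger complex, Cdc20 activates the anaphase-promoting complex, and Mki67 encodes Ki-67, a coat of mitotic chromosomes used as a marker of cycling cells. In such bulk samples, more cycling cells and more RNA of these genes per cell cannot be told apart.

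The promoters of 9 of the 10 genes are in the RefSeq promoter table (build GRCm38.p6; 300 bases around each gene start), and 5 of them are shown: 2 helicase genes with large differences in the results below, both mitosis genes called in the triple null (Cdk1 and Birc5), and Cdc20 as a mitosis gene with CHR letters alone. Capitals mark E2F letters (TTTCCCGC, TTTGGCGC, TTTCGCGC or TTTGCCGC, either strand) and CHR letters (TTTGAA, either strand). Mcm5 lies at chr8:75109259-75109558 on the plus strand, Mcm6 at chr1:128359656-128359955, Cdk1 at chr10:69352863-69353162 and Cdc20 at chr4:118437294-118437593, the last 3 on the minus strand. Birc5 lies at chr11:117848987-117849286 on the plus strand and holds none of these letters.
Mcm5: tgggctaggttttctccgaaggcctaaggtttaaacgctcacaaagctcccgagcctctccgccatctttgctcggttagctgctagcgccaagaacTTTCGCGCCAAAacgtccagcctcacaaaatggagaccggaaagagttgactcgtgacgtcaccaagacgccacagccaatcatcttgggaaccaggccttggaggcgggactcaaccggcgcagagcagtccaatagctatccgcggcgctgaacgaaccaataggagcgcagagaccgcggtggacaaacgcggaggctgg
Mcm6: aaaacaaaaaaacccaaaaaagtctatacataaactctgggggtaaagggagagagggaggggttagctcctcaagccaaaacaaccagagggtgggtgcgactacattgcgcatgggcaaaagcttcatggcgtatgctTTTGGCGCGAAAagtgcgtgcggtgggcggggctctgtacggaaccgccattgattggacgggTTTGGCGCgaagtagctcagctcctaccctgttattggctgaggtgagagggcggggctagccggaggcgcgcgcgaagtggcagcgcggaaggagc
Cdk1: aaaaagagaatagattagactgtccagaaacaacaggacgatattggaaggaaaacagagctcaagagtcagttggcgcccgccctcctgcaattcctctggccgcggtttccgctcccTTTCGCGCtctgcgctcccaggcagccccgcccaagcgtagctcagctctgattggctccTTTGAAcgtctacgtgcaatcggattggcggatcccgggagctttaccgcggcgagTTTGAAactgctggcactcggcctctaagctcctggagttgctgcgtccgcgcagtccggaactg
Birc5: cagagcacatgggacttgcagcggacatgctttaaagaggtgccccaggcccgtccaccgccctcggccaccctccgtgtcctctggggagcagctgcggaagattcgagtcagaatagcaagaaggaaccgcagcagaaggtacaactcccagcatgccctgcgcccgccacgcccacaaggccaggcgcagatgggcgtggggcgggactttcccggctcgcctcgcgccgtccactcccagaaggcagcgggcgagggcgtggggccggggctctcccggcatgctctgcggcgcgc
Cdc20: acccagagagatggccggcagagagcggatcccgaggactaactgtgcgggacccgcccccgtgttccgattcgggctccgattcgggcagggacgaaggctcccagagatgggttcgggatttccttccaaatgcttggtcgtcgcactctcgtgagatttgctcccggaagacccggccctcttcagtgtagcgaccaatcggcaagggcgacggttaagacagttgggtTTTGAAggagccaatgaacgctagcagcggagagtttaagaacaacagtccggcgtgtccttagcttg
In Mcm5 the TTTCGCGC that starts 153 bases before the gene start overlaps a TTTGGCGC on the other strand, and Mcm6 has such an overlapping pair 110 bases before its start and a further TTTGGCGC at 47 bases. Cdk1 holds both kinds of element, with TTTCGCGC at 131 bases and TTTGAA at 71 and 15 bases before the start. Cdc20 holds TTTGAA at 18 bases before the start and no E2F letters. Over all members, E2F letters were found in 4 of the 5 Mcm genes with a promoter entry (Mcm3, Mcm5, Mcm6 and, in 1 of its 2 promoters, Mcm7) and in 1 of the 4 mitosis genes (Cdk1), against 2.26% of 32851 mouse promoters. CHR letters were found in 3 of the 4 mitosis genes (Cdk1, Cdc20 and Mki67) and in 1 Mcm gene (Mcm2), against 17.9% of promoters. The letters CCAAT, either strand, were found in 8 of the 9 members with an entry, all but Birc5, against 37.4% of promoters. These are matches of letters and were not tested as binding sites.

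Without any deletion the helicase genes were low and unequal per length. In the lox hepatocytes Mcm7 stood at 6.76 ± 1.74 RPKM (SD, n = 3), while Mcm2, Mcm3, Mcm4, Mcm5 and Mcm6 stood at 0.452 ± 0.107, 0.615 ± 0.068, 0.738 ± 0.262, 0.267 ± 0.129 and 0.734 ± 0.238 RPKM. Mcm7 made up 65 to 76.8% of the summed Mcm RPKM there, although the helicase holds its subunits in equal number. The Mcm7 gene overlaps Ap4m1 and the microRNA genes Mir25, Mir93 and Mir106b in the RefSeq annotation, and Cdc20 overlaps Elovl1. Whether the authors' counting used strand or split such reads is not stated, so the values of Mcm7 and Cdc20 are uncertain to that extent. Of the mitosis genes Cdk1 was the highest in lox (3.1 ± 1.87 RPKM), above Birc5 (1.55 ± 0.531), Cdc20 (0.862 ± 0.836) and Mki67 (0.251 ± 0.268).

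In the triple null, Mcm2, Mcm4, Mcm5, Mcm6, Cdk1 and Birc5 rose against FoxA3 null, and Mcm7 showed no change that passed the test. Mcm5 read 0.935, 2.8, 0.773 and 2.85 RPKM in triple null libraries 1 to 4 and 0.243, 0.506, 0.294 and 0.466 RPKM in the FoxA3 null libraries. All 4 triple null libraries were above all 4 controls, with libraries 2 and 4 highest. The ratio of mean RPKM was 4.88, and the difference of log2(RPKM + 1) was 0.95 ± 0.24 (SE; limma adjusted p 0.00879). The pseudocount of 1 shrinks the differences of genes as low as these, so the differences understate the ratios.

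Mcm4 read 1.57, 4.59, 1.21 and 3.28 RPKM in the triple null and 0.456, 0.752, 1.21 and 0.926 RPKM in FoxA3 null, with library 3 level with the highest control. Its difference was 0.91 ± 0.26 (SE; limma adjusted p 0.0179). Mcm2 (0.64 ± 0.21, adjusted p 0.03) and Mcm6 (0.80 ± 0.28, adjusted p 0.0444) rose as well, each with 3 of 4 triple null libraries above every control. Mcm3 had a difference of 0.74 ± 0.29 that missed the threshold (adjusted p 0.065), with libraries 1, 2 and 4 at 1.62, 3.79 and 3.47 RPKM and library 3 at 0.559 RPKM, below all controls (0.614 to 1.08 RPKM). Mcm7 read 5.01, 8.88, 3.13 and 5.92 RPKM in the triple null and 3.93 to 7.66 RPKM in FoxA3 null, a difference of 0.01 with a 95% interval of -0.49 to 0.52 (limma adjusted p 0.973).

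Among the mitosis genes Cdk1 read 5.56, 18.1, 4.39 and 8.4 RPKM in the triple null and 3.5, 1.21, 1.83 and 4.09 RPKM in FoxA3 null. The groups did not overlap, and library 2 stood above the rest of the 21 libraries used here. Cdk1 rose by 1.37 ± 0.41 on the log2 scale (SE; limma adjusted p 0.021; ratio of means 3.43). Birc5 read 1.28, 3.96, 1.18 and 3 RPKM against 0.56, 0.114, 0.407 and 0.696 RPKM. Every triple null library was above every control, and Birc5 rose by 1.14 ± 0.35 (limma adjusted p 0.0224; ratio of means 5.3). Cdc20 had the highest ratio of these 3, 6.31, and the largest SE on the log2 scale. It read 2.21, 4.5, 0.693 and 5.5 RPKM against 0.071 to 1.44 RPKM. Its difference of 1.38 ± 0.51 missed the threshold (limma adjusted p 0.0534). Mki67 never reached 1 RPKM in a hepatocyte library and was not tested; it read 0.393, 0.73, 0.124 and 0.723 RPKM in the triple null and 0.0227 to 0.234 RPKM in FoxA3 null.

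In all, 6 of the 9 members tested had a limma adjusted p under 0.05 and were higher, where 17.4% of the 11500 genes tested were, and 2 (Cdk1 and Birc5) were called, with a log2 difference of at least 1 besides, where 4.17% of all genes were called higher. The groups did not overlap for 3 members (Mcm5, Cdk1 and Birc5), as for 16.2% of all genes in that direction. Mcm2 and Mcm5 entered the test only because 3 libraries reached 1 RPKM, triple null 2 and 4 and Cre alfp 4, so these counts carry the choice of that minimum. With every gene tested, adjusted p stayed under 0.05 for Mcm4 (0.0487) and Mcm5 (0.0245) and for none of the other 8. More genes then enter the adjustment, and the SE of the members rose too (Cdk1 from 0.407 to 0.437). Without triple null library 2, none of the 7 members then tested had a limma adjusted p under 0.05 (5 had an unadjusted p under 0.05), and without library 4 only Cdk1 of 7 did. Without FoxA3 null library 1 or 2, 3 of 9 did.

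**Figure D1:**
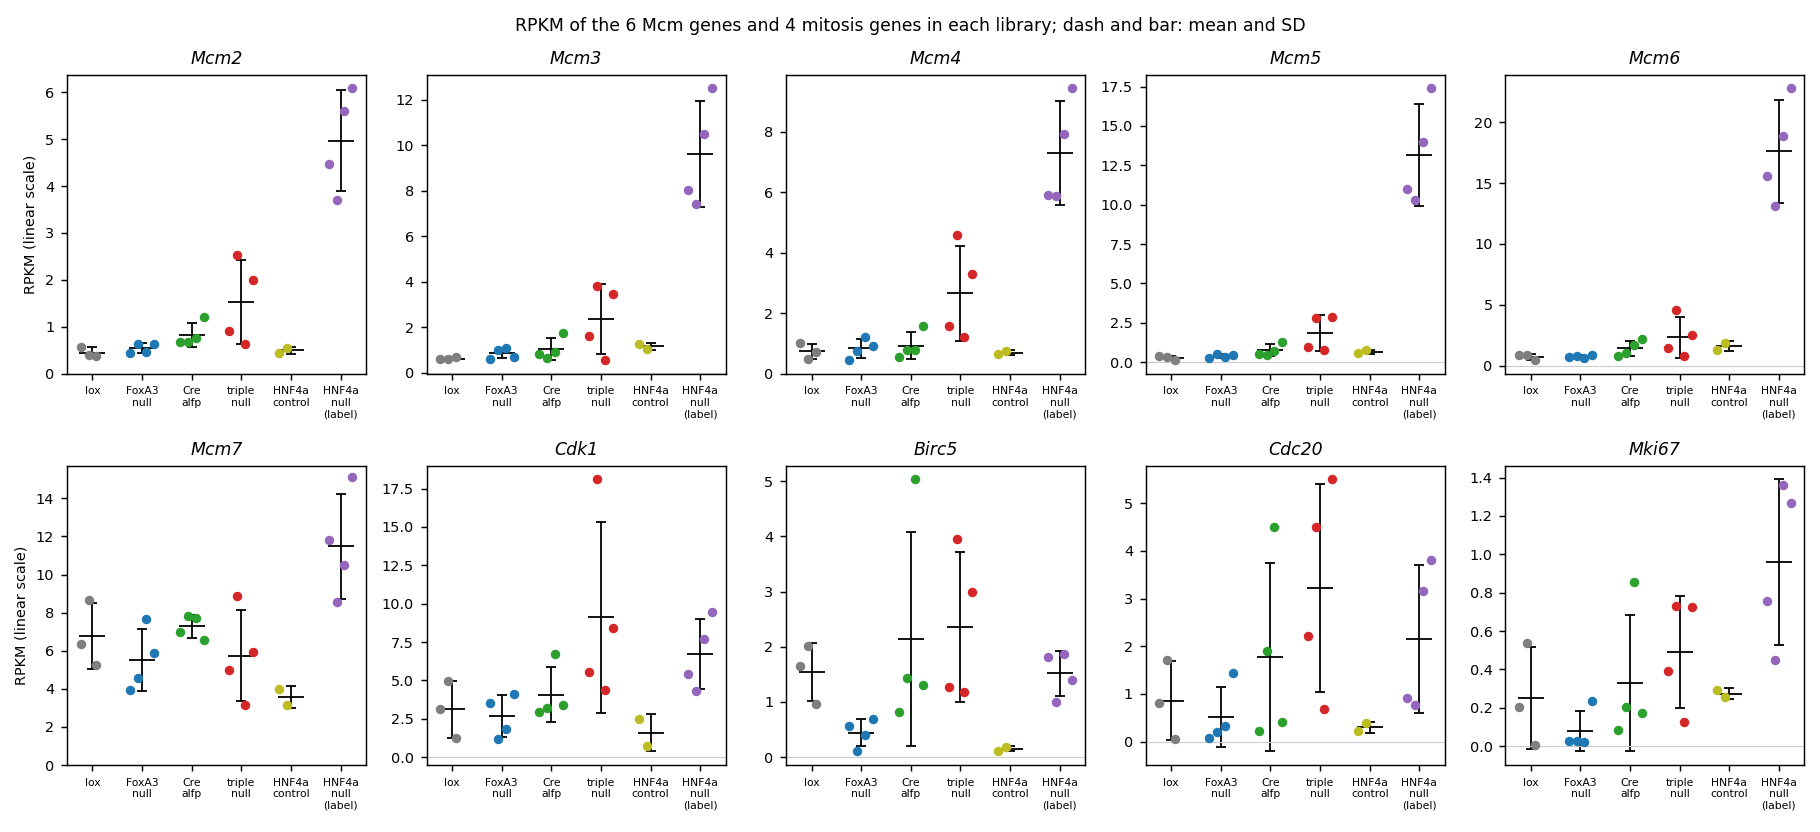
RPKM of each member (vertical axis, linear, its own scale per gene) in each library (points) of the 6 groups, with the group mean (dash) and SD (bar). Triple null libraries spread widely, the libraries labelled HNF4a null lie above all others for Mcm2 to Mcm6, and Mcm7 is high in all groups, from 3.13 to 15.1 RPKM.

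The members moved together from library to library within the triple null. Library 2 was highest for 8 of the 10 members, library 4 for the other 2 (Mcm5 and Cdc20), and library 3 was lowest for all 10. The Mcm2 to Mcm6 sum ran from 3.94 RPKM in library 3 to 18.3 RPKM in library 2, and the sum of the 4 mitosis genes from 6.39 to 27.3 RPKM. The ratio of these sums stayed between 0.617 and 0.802 over the 4 libraries. The members moved together among the libraries labelled HNF4a null as well, with library 4 highest for 8 of the 10 and library 2 lowest for all 10. In the Cre alfp group the 2 sums came apart: library 3 had the highest mitosis sum (17.1 RPKM) with an Mcm2 to Mcm6 sum of 4.93 RPKM, a ratio of 0.288, while library 4 had the highest Mcm sum (7.99 RPKM) with 5.31 RPKM of mitosis genes, a ratio of 1.51. Cre alfp library 3 also had the highest Kupffer cell and macrophage, sinusoidal endothelial, and stellate cell and fibroblast marker sums of its group (93.1, 99.1 and 56.4 RPKM). Cre alfp library 4 had the lowest (31.1, 27.8 and 15 RPKM). Other markers moved with the triple null too. The 10 neutrophil and monocyte markers summed to 9.71, 112, 24.4 and 25.5 RPKM in libraries 1 to 4 and to 0.852 to 2.15 RPKM in FoxA3 null. Most of each triple null sum came from S100a8 (3.93, 91.3, 19.5 and 14.9 RPKM) and S100a9 (5.03, 17.3, 3.53 and 9.02 RPKM). Only these 2 of the 10 were tested, and both were called higher. Ly6g was listed at 0 in all libraries. Sinusoidal endothelial markers summed to 12.7 to 24.7 against 37.8 to 60.4 RPKM, and no lymphocyte marker reached 1 RPKM in a hepatocyte library. The hepatocyte markers summed to 29500, 25100, 33100 and 27700 RPKM in triple null libraries 1 to 4, lowest in library 2 and highest in library 3. In FoxA3 null they summed to 44800 to 55000 RPKM, and 6 of 10 were called lower in the triple null (median difference -1.12). Kupffer cell and macrophage markers summed to 30.6, 57.6, 18 and 22.4 against 27.5 to 37.6 RPKM. Lymphocyte markers summed to 0.646, 2.27, 0.642 and 1.66 against 0.387 to 0.764 RPKM. Both of these sums were highest in library 2 and lowest in library 3. Stellate cell and fibroblast markers summed to 7.15 to 25.7 against 26.9 to 36.4 RPKM, with 2 of 4 tested called lower. Erythroid markers summed to 16.3 to 38 against 42.4 to 58.4 RPKM, although 3 of 6 tested were called higher and 1 lower. The part of other cells in the members' values was not tested.

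**Figure D2:**
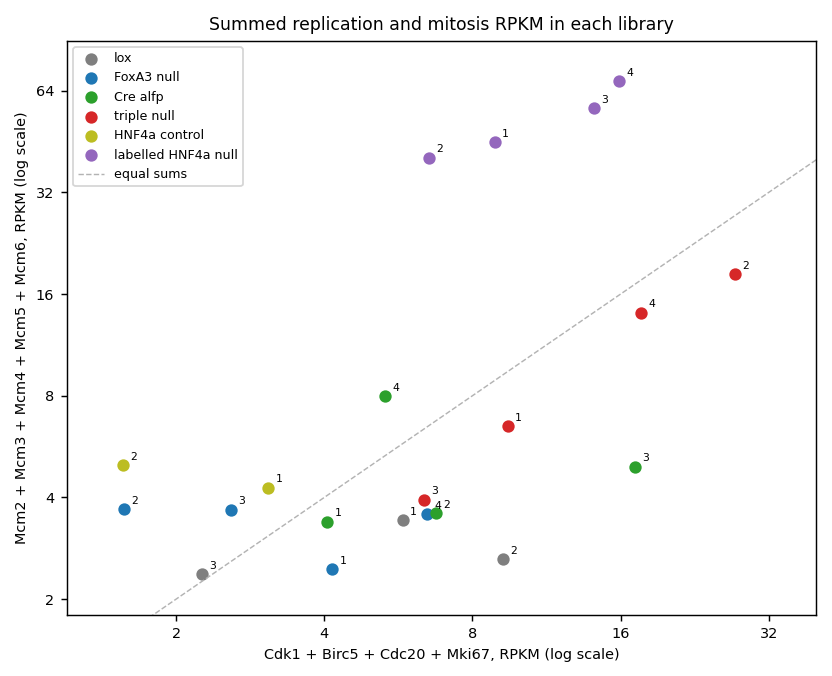
Summed RPKM of Mcm2 to Mcm6 (vertical, log scale) against summed RPKM of the 4 mitosis genes (horizontal, log scale) in each library, numbered within its group; the dashed line marks equal sums. The triple null libraries lie along a line just under equality, and the 4 libraries labelled HNF4a null lie 4.03 to 6.19 times above equality.

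Deletion of FoxA1 and FoxA2 with FoxA3 present gave no change that passed the test. Cre alfp Mcm5 read 0.511, 0.475, 0.734 and 1.29 RPKM against 0.38, 0.294 and 0.126 RPKM in lox. Those groups did not overlap, nor did they for Mcm2, and 11.2% of all genes were likewise higher with no overlap. The difference of Mcm5 was 0.45 ± 0.26 (limma adjusted p 0.403), and the differences of the other 8 members tested ran from 0.11 (Mcm7) to 0.46 (Mcm6). None of the 9 had a limma adjusted p under 0.05, and none an unadjusted p under 0.05; 5.46% of all genes had such an adjusted p in either direction and 2.38% were called. The 95% intervals reached 0.80 for Mcm2, 0.97 for Mcm3, 1.01 for Mcm5, 1.11 for Mcm6 and 1.59 for Cdc20, above the differences of these genes in the triple null, so changes of that size were not excluded. The limit of Mcm7 (0.659) was above its difference there as well. For Mcm4, Cdk1 and Birc5 the limits (0.738, 1.3 and 0.958) were below the triple null differences (0.911, 1.37 and 1.14).

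The interaction asks whether the FoxA1/A2 deletion acts more strongly without FoxA3. Only the pair without FoxA3 is stated to have received AAV, at 8 weeks, so FoxA3 status cannot be told apart from the way and time of deletion. Its value was 1.01 ± 0.60 for Cdk1 (95% interval -0.28 to 2.29), 0.98 ± 0.51 for Birc5 (-0.10 to 2.07) and 0.78 ± 0.39 for Mcm4 (-0.05 to 1.61). No member had a limma adjusted p under 0.05 (0.193 at the lowest, Mcm4) or an unadjusted one under 0.05, while 14.4% of all genes had such an adjusted p. Without Cre alfp library 3, Birc5 passed with an interaction of 1.35 (adjusted p 0.0415). Cdc20 had an interaction of 0.97 (-0.63 to 2.57). The intervals of Cdk1, Birc5 and Cdc20 reach above 2, so a large interaction was not excluded for them.

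FoxA3 null hepatocytes differed little from lox in the Mcm genes, with differences from -0.27 (Mcm7) to 0.18 (Mcm3). Birc5 had the largest, -0.81 ± 0.37 (limma adjusted p 0.103), with 0.114 to 0.696 RPKM against 1.66, 2.01 and 0.968 RPKM in lox. No member had a limma adjusted p under 0.05 (1, Birc5, had an unadjusted p under 0.05), where 34.8% of all genes had one. For this gene the choice of control changed the result: Birc5 was 5.3 times FoxA3 null but 1.52 times lox, with a difference from lox of 0.33 ± 0.37 (adjusted p 0.5).

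Against lox, 6 of 9 members tested were higher in the triple null with a limma adjusted p under 0.05, namely Mcm2, Mcm3, Mcm4, Mcm5, Mcm6 and Cdk1 (27.7% of all genes were). Mcm5 (1.08 ± 0.26, adjusted p 0.00472) and Cdk1 (1.23 ± 0.44, adjusted p 0.0358) were called, against 7.72% of all genes called higher. After scaling to a common median neither was called: Mcm5 had a difference of 0.94 (adjusted p 0.0117) and Cdk1 one of 1.10 (adjusted p 0.0612). Cdk1 also failed to pass with no filter (adjusted p 0.0907), after quantile normalization (0.0536) and with only these groups in the fit (0.0635). With no filter, 3 of 10 members had a limma adjusted p under 0.05. Mcm3 and Mcm6 did not pass with no filter (adjusted p 0.0675 and 0.0965) or after median scaling (0.0625 and 0.0868). Nor did they with only these groups in the fit (0.0723 and 0.0928). Without triple null library 2 or library 4, 1 of 7 members tested passed. With the replicate number as a block, Mcm3, Mcm6 and Cdk1 no longer passed (adjusted p 0.0564, 0.067 and 0.0704). Cdk1 passed in 3 of the 7 fits that left out a library, and Mcm3 and Mcm6 in 2 of 7 each. Against Cre alfp, 1 of 9 members passed, Mcm4 with a difference of 0.85 ± 0.26 (limma adjusted p 0.0183), where 26.9% of all genes did. Mcm4 no longer passed without triple null library 2 or 4 or Cre alfp library 1 (adjusted p 0.0572, 0.0555 and 0.054). Mcm5 passed after quantile normalization (0.0249) and without triple null library 1 or 3 (0.0226 and 0.015), Mcm2 after quantile normalization (0.0484) and without triple null library 3 (0.026), and Mcm3 without triple null library 3 (0.00484). The comparisons with FoxA3 null, lox and Cre alfp share the triple null libraries.

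In liver, all 6 Mcm genes rose in the libraries labelled HNF4a null. Mcm5 read 11, 10.3, 14 and 17.4 RPKM there and 0.581 and 0.749 RPKM in HNF4a control, a ratio of means of 19.8, the highest of the 10 members. Its difference was 3.07 ± 0.21 (SE; limma adjusted p 7.42e-05). Mcm6 read 15.6, 13.1, 18.9 and 22.8 RPKM against 1.33 and 1.9 RPKM (2.81 ± 0.22, adjusted p 0.000145). Mcm2, Mcm3 and Mcm4 rose by 1.98, 2.28 and 2.26, from means of 0.497, 1.15 and 0.699 RPKM to 4.97, 9.62 and 7.29 RPKM (adjusted p at most 0.000291). Mcm7 rose least of the 6, from 3.99 and 3.17 RPKM to 11.8, 8.55, 10.5 and 15.1 RPKM (1.43 ± 0.21, adjusted p 0.0019). Its share of the summed Mcm RPKM ran from 38.8 to 48.3% in control and from 15.6 to 20.8% under the HNF4a null label.

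Of the mitosis genes, Cdk1 and Birc5 rose as well, with ratios of means of 4.24 and 9.75 against 3.21 for Mcm7. Cdk1 read 5.41, 4.32, 7.73 and 9.45 RPKM against 2.45 and 0.726 RPKM and rose by 1.61 ± 0.36 (limma adjusted p 0.00953), a call that was lost without HNF4a control library 2 (adjusted p 0.0657). Birc5 read 1.81, 1, 1.87 and 1.39 RPKM against 0.12 and 0.192 RPKM and rose by 1.11 ± 0.18 (adjusted p 0.00302). Cdc20 fell into a low pair (0.91 and 0.769 RPKM) and a high pair (3.15 and 3.82 RPKM) against 0.22 and 0.386 RPKM, and did not pass (1.14 ± 0.45, adjusted p 0.0689). Mki67 read 0.755, 0.447, 1.36 and 1.27 RPKM against 0.293 and 0.255 RPKM and did not pass either (0.59 ± 0.23, adjusted p 0.0646). For both genes the libraries of the 2 groups did not overlap.

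Thus 8 of 10 members were called higher in liver, where 8.58% of 12434 genes were, and the same 8 had a limma adjusted p under 0.05, where 41.1% of genes did. Mcm2, Mcm4, Mcm5, Birc5, Cdc20 and Mki67 reached 1 RPKM in liver only under the HNF4a null label and so entered the test through the group where they were high; with every gene tested, 8 of 10 were called as well. All 10 were higher with no overlap between groups, as were 52.6% of all genes with 4 against 2 libraries. The median difference over all genes was 0.34 in this comparison, and relative to it Mcm5 stood at 2.73, Mcm7 at 1.09, Cdk1 at 1.28, Birc5 at 0.77 and Mki67 at 0.26. After scaling each library to a common median, 7 of the 8 calls held, all but Birc5. Cholangiocyte markers (11 genes) summed to 17.9 to 18.8 RPKM in control and 138 to 236 RPKM under the HNF4a null label, and neutrophil and monocyte markers to 5.32 to 18.2 against 1.96 to 2.58 RPKM. Erythroid markers (9 genes) summed to 299, 240, 561 and 634 RPKM in libraries 1 to 4 of that label and to 357 and 324 RPKM in control. Mcm2 to Mcm6, Cdk1, Cdc20 and Mki67 were likewise lower in both libraries 1 and 2 of that label than in libraries 3 and 4. Mcm7 and Birc5 did not split into these pairs. The 10 hepatocyte markers summed to 17200 to 23400 against 30200 to 30600 RPKM in control, with 4 called lower and 2 higher. The part of these cells in the members' values was not tested.

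**Figure D3:**
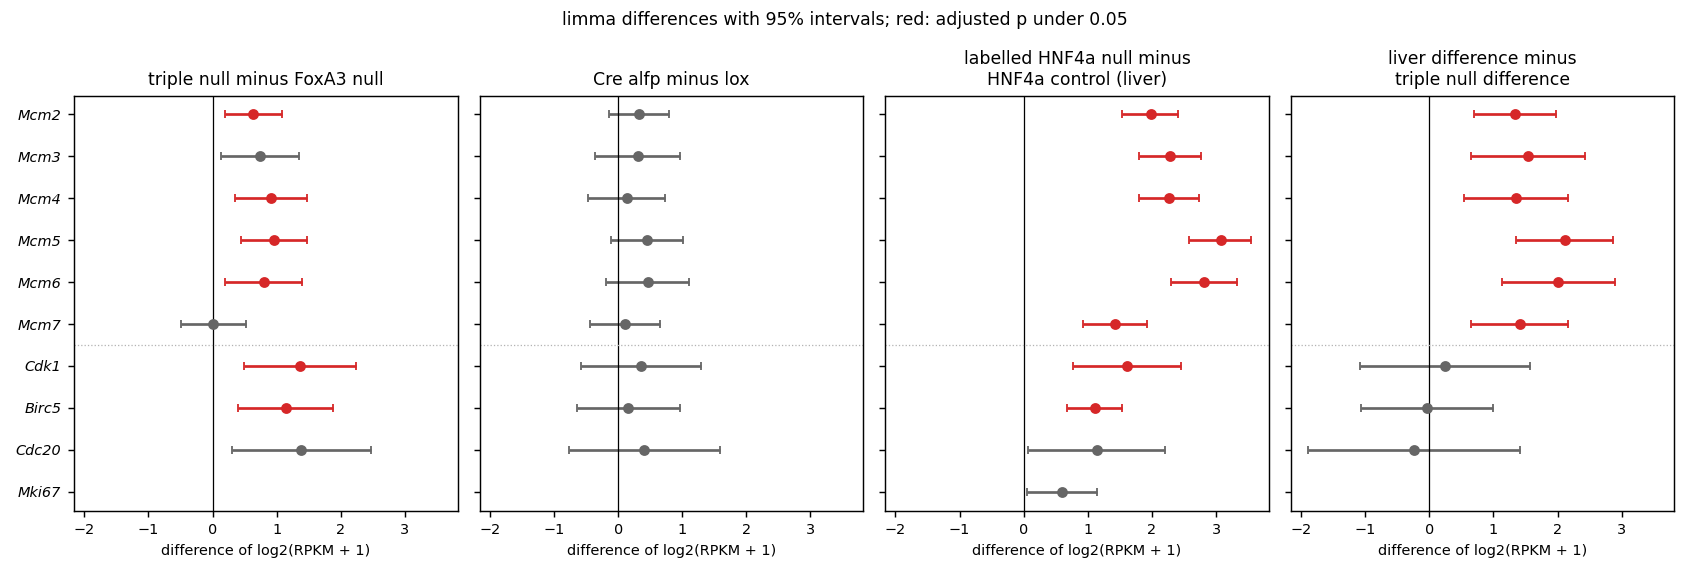
Differences of log2(RPKM + 1) with 95% limma intervals (horizontal) for each member (rows; Mcm genes above the dotted line, mitosis genes below) in 4 comparisons, red where the adjusted p was under 0.05. All 6 Mcm genes are red in liver and in the difference between the liver and triple null differences, and no mitosis gene is red in the latter; Mki67 was tested in liver only.

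Whether the rise differed between the 2 losses was tested with a comparison chosen after seeing the data, the liver difference less that of triple null against FoxA3 null, in 1 fit of all 21 libraries. With the liver labels as given, the difference of all 6 Mcm genes was larger in liver. The excess was 2.11 ± 0.36 for Mcm5 (limma adjusted p 0.000204), 2.01 ± 0.42 for Mcm6 (0.00114), 1.54 ± 0.42 for Mcm3 (0.00822), 1.41 ± 0.36 for Mcm7 (0.00522), 1.35 ± 0.39 for Mcm4 (0.0107) and 1.34 ± 0.30 for Mcm2 (0.00221). All 6 were called, where 10.4% of 12933 genes were called higher, and all 6 kept an adjusted p under 0.05 without each of the 14 libraries of these groups in turn. For the mitosis genes no excess passed with these labels. It was 0.25 for Cdk1 (95% interval -1.08 to 1.57, limma adjusted p 0.787), -0.03 for Birc5 (-1.07 to 0.999) and -0.24 for Cdc20 (-1.89 to 1.41). These intervals are wide and overlap those of several Mcm genes. The split between Mcm and mitosis genes held only with the labels as given. With the HNF4a null and HNF4a control labels turned, all 9 members tested had a smaller difference in liver, among them Mcm5 (-4.02 ± 0.36, limma adjusted p 7.42e-08), Cdk1 (-2.98 ± 0.63, 0.000891), Birc5 (-2.25 ± 0.49, 0.00116) and Cdc20 (-2.53 ± 0.79, 0.0138). Turning the labels only reverses the sign of the liver difference. That difference and the triple null difference were positive for all 9, so these negative signs were fixed in advance and are no test. The median over all genes of this comparison was 0.29, and the losses differ in tissue (liver against hepatocytes) as well, which cannot be told apart from the factor lost.

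The balance of replication to mitosis RNA differed between groups, without a test. The ratio of the Mcm2 to Mcm6 sum to the mitosis sum was 4.03 to 6.19 in the libraries labelled HNF4a null, 1.38 and 3.2 in HNF4a control, and 0.617 to 0.802 in the triple null. In the other hepatocyte groups it ran from 0.284 to 1.05 in lox, from 0.553 to 2.36 in FoxA3 null and from 0.288 to 1.51 in Cre alfp. The triple null range thus lay inside that of its FoxA3 null controls. These sums leave out Mcm7, whose level would otherwise dominate them in hepatocytes, and the comparison depends on that choice. With all 6 Mcm genes the ratio was 0.996 to 1.22 in the triple null, below all 4 FoxA3 null libraries (1.46 to 5.28). The other controls were not set apart in this way: lox ran from 1.22 to 3.37 and Cre alfp from 0.739 to 2.74. In the liver set the 6-gene ratio overlapped as well. It was 4.77 to 7.49 in the libraries labelled HNF4a null, which then overlapped HNF4a control library 2 (5.24) and FoxA3 null library 2 (5.28). By mean level, the libraries labelled HNF4a null were the highest group for each of the 6 Mcm genes and for Mki67, and the triple null was the highest for Cdk1, Birc5 and Cdc20. The step from the triple null up to the libraries labelled HNF4a null left no overlap of their ranges of mean ± SD for Mcm2 to Mcm6, and for Cdk1, Birc5 and Cdc20 that range of the triple null overlapped the range of the next group down. Most other neighbours in the order of levels had overlapping ranges of mean ± SD. Exceptions were Mcm7 in Cre alfp and Birc5 in FoxA3 null, each below the libraries labelled HNF4a null. Another was Mcm5 in FoxA3 null, below HNF4a control.

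The wider cell cycle machinery was followed in 8 lists that hold none of the members. Passing the 1 RPKM minimum favours genes that are high in some library, so the counts describe the genes tested. In the triple null against FoxA3 null, of 12 origin licensing and helicase loading genes tested, 5 were higher with an adjusted p under 0.05 (17.4% of all genes were), none of them called (limma), and 1 was called lower (3.95% of all genes were called lower). That gene was Mcm10, a replication initiation factor, at 13.7 to 24.3 RPKM against 51.8 to 65.6 RPKM (fell by 1.72, adjusted p 0.000482). Of 30 replication fork and nucleotide supply genes 7 were higher at that p, a share near the 17.4% of all genes, and none was called. Pcna, the sliding clamp, was among the 7 (18 to 26.9 against 12.3 to 14.3 RPKM, 0.80 ± 0.19, adjusted p 0.00645). The median difference of these lists was 0.23 and 0.21, against 0.05 over all genes.

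The mitosis lists had larger median differences in the triple null, a comparison that was not tested. Of 9 genes of anaphase, condensation and cytokinesis, 3 were called higher than in FoxA3 null, where 4.17% of all genes were (median difference 1.01): Ube2c, the ubiquitin carrier of the anaphase-promoting complex (1.69, adjusted p 0.0311), and the condensin genes Smc4 (1.33, adjusted p 0.00475) and Smc2 (1.01, adjusted p 0.0394). These 3 were not called against the other controls: Smc4 averaged 19.7 RPKM in the triple null, 6.95 RPKM in FoxA3 null, 18.9 RPKM in lox and 25.9 RPKM in Cre alfp. Against lox the differences were 0.10 for Smc4, 0.16 for Smc2 and 0.59 for Ube2c (limma adjusted p 0.831, 0.753 and 0.449), and against Cre alfp the adjusted p was 0.301, 0.994 and 0.518. Of 12 kinetochore and spindle genes 1 was called higher than in FoxA3 null (4.17% of all genes were), Spc24 of the Ndc80 complex, at 42.1 to 103 against 7.17 to 11.2 RPKM (2.77 ± 0.25, adjusted p 1.41e-06; median of the list 0.58). None of 10 mitotic cyclin and kinase genes was called, and 3 were higher with an adjusted p under 0.05, where 17.4% of all genes were (limma; median 0.52). Ccnb1, the cyclin partner of Cdk1, was under the minimum, at 0.313, 1.15, 0.0766 and 1.13 RPKM against 0 to 0.221 RPKM.

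Of 4 inhibitors of cyclin-dependent kinases tested, 2 were called higher, where 4.17% of all genes were. Cdkn1a (p21), an inhibitor of cyclin-dependent kinases, read 36.2, 59.8, 32.8 and 28.3 RPKM in the triple null and 8.61, 5.88, 1.28 and 2.25 RPKM in FoxA3 null (3.04 ± 0.78, limma adjusted p 0.00919). Library 3, lowest for all 10 members, had a Cdkn1a level between those of libraries 1 and 4. Cdkn3, a phosphatase that acts on Cdk proteins, rose by 1.37 (adjusted p 0.0329), and of 11 p53 target genes 4 were called higher, against the same 4.17%: Gadd45a (1.77), Phlda3 (1.61), Ccng1 (1.30) and Sesn2 (1.02). Gadd45a in the triple null (53 to 93.8 RPKM) overlapped lox (20.3 to 78.3 RPKM) and Cre alfp (34.3 to 102 RPKM). Phlda3 and Ccng1 in the triple null overlapped neither lox nor Cre alfp. Among 18 G1 cyclin, E2F and pocket protein genes none was called higher and 1 was called lower, E2f8, a repressor of E2F targets (fell by 1.01, adjusted p 0.0137; 0.0985 to 0.36 against 0.783 to 2.42 RPKM). Of the 12 list genes called in this comparison, 6 were called without each of the 8 libraries (Mcm10, Spc24, Smc4, Cdkn1a, Gadd45a and Ccng1). Sesn2, Ube2c, Phlda3, Smc2, E2f8 and Cdkn3 each lost the call without triple null library 2 and without at least 2 other libraries.

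In the Cre alfp against lox comparison 3 of the 106 list genes tested were called (2.83%), a share near the 2.38% of all genes. Ccnd1, the G1 cyclin that starts re-entry into the cycle, was higher (2.03 ± 0.49, limma adjusted p 0.0272; 10.6 to 19.6 against 1.03 to 6.72 RPKM), Cdkn2c was higher (1.15), and Mcm10 was lower (fell by 1.48, adjusted p 0.0125). In FoxA3 null against lox, Ccnd1 was called higher (1.79) and Rb1 (fell by 1.36) and Smc4 (fell by 1.23) lower, 3 of 106 where 7.19% of all genes were called. In the interaction, Spc24 (2.62), Cenpm (1.37) and Cks1b (1.04) were called higher, again 3 of 106, where 6.82% of all genes were called.

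In liver the replication fork list held the most called genes. Of 33 fork, nucleotide and chromatin assembly genes tested, 21 were called higher, where 8.58% of all genes were, and the median difference was 1.24 against 0.34 over all genes. Uhrf1, which recruits maintenance DNA methylation to the fork, read 6.52, 6.33, 11.5 and 16.8 RPKM against 0.216 and 0.224 RPKM (3.11 ± 0.37, limma adjusted p 0.000808). Rpa1, which coats single-stranded DNA, rose from 8.82 to 62.6 RPKM in the mean (2.68), Hells, a chromatin remodeller, rose by 2.49, and Rrm2, the regulated subunit of ribonucleotide reductase, and Lig1, the replicative ligase, each rose by 1.96. Of 16 origin licensing genes 4 were called higher, against the same 8.58%, led by Wdhd1 (1.57), Gins1 (1.54) and Cdc45 (1.45), the last 2 being partners of the Mcm ring, with Orc6 at 1.19. Mcm10 again went the other way, at 4.22 to 7.21 against 43.9 and 71.8 RPKM (fell by 3.14, adjusted p 0.000158), where 5.95% of all genes were called lower.

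Of the liver mitosis lists, 8 of 15 anaphase and condensation genes, 7 of 15 kinetochore and spindle genes and 1 of 12 mitotic cyclin and kinase genes (Cks1b, 1.50) were called higher, with median differences of 1.02, 0.96 and 0.65. The last of these counts is near the 8.58% of all genes called higher. Top2a (1.54), Ect2 (1.43), Smc4 (1.36) and Smc2 (1.28) led the first and Spc25 (2.09), Cenpk (1.61), Ckap2 (1.33) and Tacc3 (1.22) the second. Of 21 G1 genes 2 were called, Ccnd1 (91.2 to 148 against 6.6 and 7.32 RPKM, 3.84 ± 0.18, limma adjusted p 1.61e-05) and Rbl1 (1.01), a share near the 8.58% of all genes called higher. Ccnd1 was called without each of the 6 libraries, and Rbl1 lost the call without HNF4a control library 2 or without library 3 or 4 labelled HNF4a null. Cdkn1a rose by 1.83, to 6.04 to 7.6 RPKM, and 3 of 11 p53 targets were called higher (Phlda3, Btg2 and Gtse1). Cdkn1a and Phlda3 were called without each of the 6 libraries, Btg2 lost the call without HNF4a control library 1, and Gtse1 lost it without HNF4a control library 2. Of the 49 list genes called in liver, 40 were called without each of the 6 libraries. With the liver labels as given, the comparison of the liver with the triple null difference called 15 of 33 fork genes and 2 of 15 origin genes higher. It called 0 of 13 mitotic cyclin and kinase genes higher (limma), and 2 of them had an adjusted p under 0.05. Of kinetochore genes 3 of 16 and of anaphase genes 2 of 16 were called higher. Among all genes 10.4% were called higher, a share near those of the origin and anaphase lists. Counts of the lists with the labels turned are not given here. For the members, the split between Mcm and mitosis genes held only with the labels as given.

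**Figure D4:**
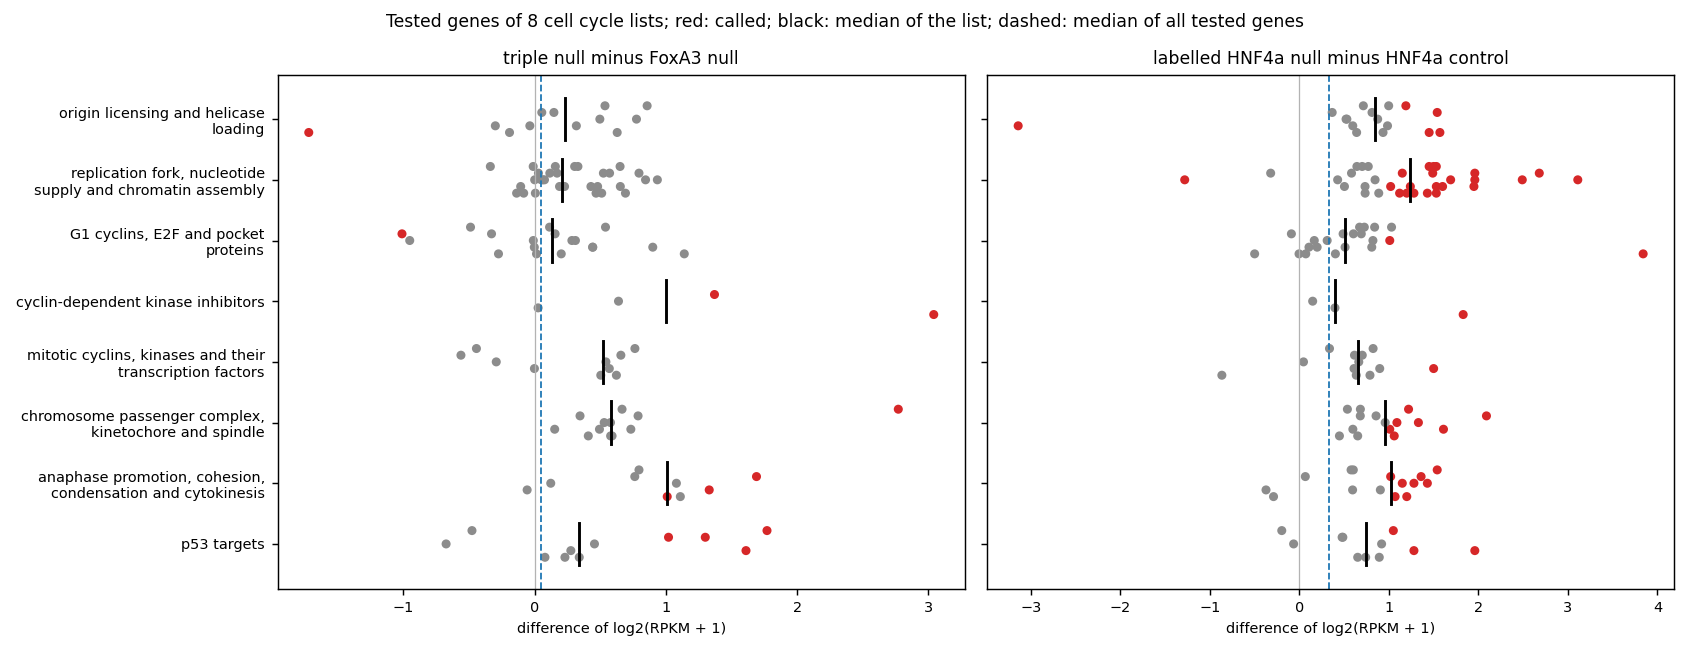
Difference of log2(RPKM + 1) (horizontal) of each tested gene (points, red where called) in the 8 cell cycle lists (rows), with the median of each list (black) and of all genes (dashed). The fork list holds 21 of the red points on the higher side in liver and none in the triple null, and Mcm10 is the far left point of the first row in both panels.

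Over the 15 hepatocyte libraries, the profile closest to the mean of the 6 Mcm genes was that of Anxa13 (mean absolute difference of the centred log2 values 0.159), followed by 4921524J17Rik (0.163), Orc6 (0.171), Acot9 (0.175) and Msrb2 (0.175). The median over the 11491 other genes was 0.407. The profiles closest to the mean of Cdk1, Birc5 and Cdc20 were those of Cdkn3 (0.16), Gm11223 (0.221), D2Ertd750e (0.227), Cdca3 (0.239) and Ckap2 (0.248), against a median of 0.648. A profile with a small range is near any other, and the Mcm profile had a range of 1.52 against 2.48 for the mitosis profile.

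The authors' deposited table of triple null against FoxA3 null lists 9 of the members, with log2 fold changes of 1.46 for Mcm2, 1.45 for Mcm3, 1.47 for Mcm4, 2.25 for Mcm5, 1.46 for Mcm6 and -0.0858 for Mcm7. It gives 1.56 for Cdk1, 2.03 for Birc5 and 2.39 for Cdc20. Adjusted p-values in the authors' deposited table ran from 5.47e-06 (Mcm5) to 0.0411 (Mcm3) for these genes other than Mcm7 (0.815) and Cdc20 (0.0627). The authors' deposited table for HNF4a gives 2.94, 2.61, 2.97, 3.87, 2.97 and 1.45 for Mcm2 to Mcm7, and 1.96, 1.64, 3.14 and 1.43 for Cdk1, Birc5, Cdc20 and Mki67, all with adjusted p-values of at most 0.0222. DESeq2 is among the tools of the submitters' processing notes, and its settings are not given in the sources used here. In the authors' deposited table of the undeleted control over the triple null, Mcm2 to Mcm6 had log2 fold changes of -1.34 (Mcm6) to -2.49 (Mcm5), with adjusted p-values of at most 0.0214. Cdk1 (-1.1, adjusted p 0.2), Birc5 (-0.601, 0.25) and Cdc20 (-1.31, 0.359) did not pass in the authors' deposited table. The authors' deposited table of triple null against Cre alfp gives 1.27 for Mcm4 (unadjusted p 0.00162), 1.08 for Mcm5 (0.0209) and 0.281 for Cdk1 (0.495). For the other members the authors' deposited table gives 0.686 for Mcm2 (0.0782), 1.01 for Mcm3 (0.116), 0.45 for Mcm6 (0.448), -0.135 for Mcm7 (0.531), -0.0788 for Birc5 (0.878) and 0.61 for Cdc20 (0.547).

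For scale, the authors' deposited tables also compare developing liver cells, not analysed here, with adult hepatocytes. For hepatoblasts over adult hepatocytes, log2 fold changes in the authors' deposited table were 6.41 for Mcm2, 6.44 for Mcm5, 2.82 for Mcm7, 3.56 for Cdk1 and 8.06 for Mki67. In newborn hepatocytes, the authors' deposited table gives 4.3, 5.75, 1.2, 2.92 and 5.25 for the same genes. Mcm7 had the smallest value of the 10 members in both. In the authors' deposited table of triple null against hepatoblasts all 10 members were lower, from -2.46 (Cdk1) to -7.32 (Mki67).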

How the data were processed

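Expression values are RPKM that the authors deposited as 1 matrix. Per the submitters' processing notes, SAMtools, Cufflinks 2.2.1, DESeq2 and build mm9 were used for RNA; the aligner and annotation are not given in the sources used here. Of the matrix columns 21 matched a sample or group by name, and 9 matched none and were not used. The liver columns carry no replicate number, so those libraries are numbered by column order as names only. RPKM hold no counts, so no count model was fitted. The deposited comparison tables hold the authors' log2 fold changes, p-values and mean normalized counts. In 4 of these tables the headers are shifted by 1 column, and 1 has its sign turned, as read from their values.

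All tests used log2(RPKM + 1) and the functions lmFit and eBayes (with a trend) of limma 3.58.1, run under R 4.3.3. The 15 hepatocyte libraries entered 1 fit over genes with at least 1 RPKM in at least 3 libraries, and the 6 liver libraries another with at least 2. P-values were adjusted by Benjamini-Hochberg over all genes tested, and a gene was called at an adjusted p under 0.05 and an absolute log2 difference of at least 1. The scripts were tested on simulated data. Same-numbered libraries of triple null and FoxA3 null did not deviate together (correlations across genes -0.126, -0.0437, -0.36 and 0.0177), so replicate numbers were not used as a block in the reported fits. The members, the 8 pathway lists and the marker lists were chosen with earlier results of these data known. The text names all 10 members, up to 4 called genes per list with the largest differences (Lig1 and Rrm2 were tied), a few further genes of the lists chosen after their values were seen (Pcna, Ccnb1, Orc6, S100a8 and S100a9), and the 5 closest profiles. The result of 1 gene of the lists is not reported here. Promoter sequences are from RefSeq, build GRCm38.p6, matched by symbol. Chromatin samples and the deposited peak list were not analysed here. Alternatives were other pseudocounts (0.1 and 0.5), no filter, quantile and median scaling, the replicate block, fits of only the groups compared and leaving out each library.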

Additional observations from a re-analysis of the deposited data

Results flagged for a closer look

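In groups of 4 libraries, each member was checked for a library far from the others, with the gap to its nearest neighbour over the range of the group set against Dixon's 95% critical value. Of 40 such checks 5 stood out, where chance gives about 1 in 20. Cre alfp library 3 stood out for Cdk1 (6.73 RPKM, the others at most 3.41), Birc5 (5.03 RPKM, the others at most 1.43) and Mki67 (0.854 RPKM, the others at most 0.205). This library also had the highest Kupffer cell and macrophage, sinusoidal endothelial, and stellate cell and fibroblast marker sums of its group (93.1, 99.1 and 56.4 RPKM). Cre alfp library 4 stood out for Mcm2 (1.2 RPKM, the others at most 0.759). FoxA3 null library 4 stood out for Mki67 (0.234 RPKM, the others at most 0.0274).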

How the results depend on the processing

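Of 1086 values of members under the alternatives, 1003 kept their direction where either value passed and their side of the threshold, 55 lost an adjusted p under 0.05, 21 gained one and 7 reversed. The 7 are those of the liver difference minus the triple null difference with the HNF4a labels turned, an alternative chosen after seeing the data: -2.62, -3.02, -3.17, -4.02, -3.61 and -1.44 for Mcm2 to Mcm7 and -2.98 for Cdk1. Their negative signs were fixed in advance, since turning the labels only reverses the sign of the liver difference. The members' count in triple null against FoxA3 null was 6, fell to 2 with no filter on low values and ran from 0 to 8 without 1 library. In liver it was 8 (7 to 10) and in the liver difference minus the triple null difference 6 (6 to 6). With no minimum difference the genes called numbered 3413 instead of 933 in triple null against FoxA3 null, 628 instead of 274 in Cre alfp against lox, 1658 instead of 784 in the interaction, 4001 instead of 827 in FoxA3 null against lox, 4891 instead of 1556 in triple null against lox, 4743 instead of 1184 in triple null against Cre alfp, 6569 instead of 1807 in liver, and 4934 instead of 2225 in the liver difference minus the triple null difference. Cre alfp against lox gave 182 with only its own groups in the fit, and FoxA3 null against lox 1303 at a pseudocount of 0.1. Without 1 library these counts ran from 866 to 1034, 177 to 284, 634 to 885, 605 to 1155, 1355 to 1704, 1049 to 1308, 1590 to 1834 and 2086 to 2350, in the same order. The replicate numbers pair no samples by the labels; with the number as a block, 919, 229, 772, 834, 1513 and 1179 genes were called in the 6 hepatocyte comparisons, the members' count in triple null against FoxA3 null stayed 6, and Mcm5 passed against Cre alfp (adjusted p 0.0323). No paired analysis was possible in liver because its columns carry no replicate number, and fits of only the groups compared do not apply to the interaction or to liver. In liver the share of calls that were higher was 59% as deposited, 39.4% after quantile normalization and 34.2% after median scaling; against lox and Cre alfp it moved from 57.1 and 51.1 to 45.1 and 39.6% for the triple null, and from 50.5 to 36.3% for FoxA3 null against lox. At a pseudocount of 0.1, Cdc20 and Mki67 passed in liver (adjusted p 0.0347 and 0.0456) and Birc5 was lower in FoxA3 null than in lox (adjusted p 0.0405). The cause of these shifts was not tested, other than that fewer libraries or more genes enter the tests. Values under 1 RPKM rest on few reads, in the liver libraries most of all.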
